A study of Mus musculus with 13 samples.

Results

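Zranb3, Vsig8, Myh15, Fat3 and Prss46 are 5 mouse genes that were far higher in visceral fat of fat-specific PD-L1 knockout (KO) mice than in that of wild-type (WT) mice and that are rarely discussed in adipose tissue. They were chosen by hand as 5 of the 22609 genes in the deposited tables, from the 10 genes with the largest log2 rise in KO fat. Those 10 had passed the test over all genes, did not overlap between groups, averaged at least 50 normalised reads and were not predicted gene models. The last gene inside that list was Cd72, with a log2 difference of 4.11, and the next outside it was Htr2b, with 3.99. Since these fat libraries chose the 5 genes, their values in fat are given as a description with no test, and tests are given for the tumours only.

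The study sequenced mRNA of 7 visceral fat samples and 6 E0771 tumours, a mouse mammary carcinoma line grown as a transplant. All mice were of the C57BL/6 strain. The fat samples were 4 from KO mice and 3 from WT mice after HFD feeding, and the tumours were 3 from KO hosts and 3 from WT hosts. The promoter that drove the deletion, the length of feeding and the diet of the tumour hosts are not given in the sources used here. Nothing in the labels ties each replicate to a separate animal. The p-values therefore reflect how these libraries vary, which may be technical.

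Zranb3 encodes a DNA translocase and nuclease that binds polyubiquitinated PCNA, the sliding clamp of replication, and remodels stalled replication forks. Vsig8 encodes a surface protein with V-type immunoglobulin domains, described in hair follicles and as a binding partner of the immune checkpoint protein VISTA. Myh15 encodes a myosin heavy chain known from specialised striated muscle, Fat3 an atypical cadherin that shapes neurons of the retina, and Prss46 a trypsin-like serine protease of a gene cluster known from testis. Itgax, which encodes CD11c and marks macrophages that gather around dying adipocytes, and Adipoq, the adipocyte hormone adiponectin, served as the comparison genes in every library. In a bulk sample, fewer cells of a type and less RNA per cell cannot be told apart.

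The promoters of 4 members are shown because these genes were all higher in KO fat than in WT fat, although not highest in the same KO libraries. The fifth, of Fat3, had none of the motifs searched. RefSeq (GRCm38.p6) lists a window of 250 bases before and 50 after a transcript start for all 5 members, with 2 windows each for Zranb3 and Vsig8. Capitals mark matches, on either strand, to 1 of 7 short motifs. These were GAGGAAGT for the ETS factor PU.1 of myeloid cells, TGANTCA for AP-1 and TTGCNNAA for C/EBP factors. CACGTG was searched as the E-box of MITF and TFE3, CCAAT as the box of that name, TATAAA as the TATA box and GGGCGG as the GC box. A match describes these letters only and is not evidence of binding.
Zranb3 promoter, chr1:128102998-128103297, minus strand: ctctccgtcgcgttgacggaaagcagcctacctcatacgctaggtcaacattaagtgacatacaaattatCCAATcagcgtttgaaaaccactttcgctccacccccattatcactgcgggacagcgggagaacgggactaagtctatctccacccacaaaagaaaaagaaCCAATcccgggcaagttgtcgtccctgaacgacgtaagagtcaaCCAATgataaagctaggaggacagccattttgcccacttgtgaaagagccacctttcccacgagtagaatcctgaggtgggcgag
Vsig8 promoter at the gene start, chr1:172555688-172555987, plus strand: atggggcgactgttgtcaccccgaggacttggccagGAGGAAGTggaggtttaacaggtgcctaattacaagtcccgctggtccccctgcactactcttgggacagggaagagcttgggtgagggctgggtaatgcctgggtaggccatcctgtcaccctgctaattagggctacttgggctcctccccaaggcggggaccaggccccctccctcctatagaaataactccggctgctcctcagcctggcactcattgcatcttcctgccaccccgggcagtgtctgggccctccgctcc
Vsig8 promoter at the inner start, chr1:172559656-172559955, plus strand: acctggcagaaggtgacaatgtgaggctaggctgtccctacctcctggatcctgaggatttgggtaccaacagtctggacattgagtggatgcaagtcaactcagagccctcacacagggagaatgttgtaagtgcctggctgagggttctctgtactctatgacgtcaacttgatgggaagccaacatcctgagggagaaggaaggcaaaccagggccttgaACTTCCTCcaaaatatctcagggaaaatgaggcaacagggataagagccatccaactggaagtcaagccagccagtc
Myh15 promoter, chr16:49057150-49057449, plus strand: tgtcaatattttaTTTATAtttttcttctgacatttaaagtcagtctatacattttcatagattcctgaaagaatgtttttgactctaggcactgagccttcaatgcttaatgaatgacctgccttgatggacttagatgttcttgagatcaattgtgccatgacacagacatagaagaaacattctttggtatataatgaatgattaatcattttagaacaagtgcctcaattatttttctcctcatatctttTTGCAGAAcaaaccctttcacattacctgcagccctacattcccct
Prss46 promoter, chr9:110844256-110844555, plus strand: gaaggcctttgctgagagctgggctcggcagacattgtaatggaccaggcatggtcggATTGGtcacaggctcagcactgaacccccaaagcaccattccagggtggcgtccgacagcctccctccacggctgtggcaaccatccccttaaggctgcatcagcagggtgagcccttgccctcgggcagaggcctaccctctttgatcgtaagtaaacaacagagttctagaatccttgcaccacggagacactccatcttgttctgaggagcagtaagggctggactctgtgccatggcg
The Zranb3 window held CCAAT at 3 places, 180, 79 and 35 bases before the start, in forward orientation. Its other window, chr1:128102422-128102721, held 1 TTGCNNAA match. Both Vsig8 windows held the 8 letters of the PU.1 motif once, at 214 bases before the outer start and, reversed, at 27 bases before the inner start. The Myh15 window held TTGCNNAA over the first bases after the start and TATAAA, reversed, at 237 bases before it. In the Prss46 window the match was a reversed CCAAT at 192 bases before the start. Among all 32851 RefSeq promoter windows, 3.20% held GAGGAAGT, 10.8% TTGCNNAA, 37.4% CCAAT and 13.6% TATAAA. The AP-1 motif, the E-box and the GC box, held by 7.81%, 7.15% and 35.7% of windows, matched no member window. None of the 7 motifs was therefore common to the 5 genes. Base composition also differed widely, with 71.3% G or C in the Fat3 window and 33.7% in that of Myh15, against 53.8% over all windows.

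The fat libraries held 29362788 to 41534662 reads in genes and the tumour libraries 22834259 to 34706555. Cd274, which encodes PD-L1, averaged 543.9 ± 17.6 normalised reads in KO fat and 590.2 ± 129 in WT fat (SD, n = 4 and 3; log2 difference -0.10, limma adjusted p = 0.660). In tumours Cd274 had a mean of 2038 ± 424 in KO hosts against 1587 ± 169 in WT hosts (SD, n = 3 each; edgeR adjusted p = 0.717). The deletion was therefore not visible in the whole-gene count of fat, and which part of the gene was deleted is not given in the sources used here. The part of other cell types in the fat count was not tested. The tumours were a transplanted line, so their count is no check of a deletion in the fat of the host. WT fat columns are numbered 1, 3 and 4 in the deposited table and WT replicates 1, 2 and 3 in the labels, so WT fat libraries are named here by column number.

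Zranb3 was the steadiest and, in total reads, the most abundant of the 5 in KO fat. Its values were 6285, 8005, 5514 and 6369 normalised reads in KO replicates 1 to 4, against 828, 211 and 257 in WT columns 1, 3 and 4. The groups lay far apart: the lowest KO library was 6.66 times the highest WT library. KO fat averaged 6543 ± 1048 and WT fat 432 ± 343 (SD, n = 4 and 3), a log2 difference of 4.18 (SE 0.42), or 18.2-fold. The log2 difference was 4.79 without WT column 1, the only one among 13 other settings that moved it by more than 1.5 times.

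Vsig8 varied more in both groups. It had 5084, 4390, 1894 and 2751 normalised reads in KO replicates 1 to 4, against 731, 140 and 66 in WT columns 1, 3 and 4. KO replicates 1 and 2 were the high ones, and WT column 1 held 11.1 times the value of WT column 4. Means were 3530 ± 1465 in KO fat and 312 ± 365 in WT fat (SD, n = 4 and 3), and the log2 difference was 4.11 (SE 0.72), or 17.2-fold. Without WT column 1 it was 5.08, without WT column 4 it was 3.35, and edgeR on the recovered reads gave 3.50.

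Myh15 was high in other KO libraries than Vsig8. KO replicates 1 to 4 had 1242, 1208, 3005 and 2572 normalised reads, against 255, 31.3 and 20.6 in WT columns 1, 3 and 4. Replicates 3 and 4 of the KO group were thus the high ones, and the WT group again spread 12.4-fold from column 1 to column 4. KO fat averaged 2007 ± 920 and WT fat 102 ± 133 (SD, n = 4 and 3), with a log2 difference of 5.03 (SE 0.78), or 32.8-fold. It was 6.13 without WT column 1, 4.34 without WT column 4 and 4.27 by edgeR on the recovered reads.

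Fat3 differed from the others in having 1 low KO library. Its values were 830, 2563, 2243 and 2392 normalised reads in KO replicates 1 to 4, against 193, 43.0 and 62.9 in WT columns 1, 3 and 4. KO replicate 1 was well below the other three, yet it was still 4.31 times the highest WT library. The means were 2007 ± 796 in KO fat and 99.5 ± 81.3 in WT fat (SD, n = 4 and 3), a log2 difference of 4.49 (SE 0.55), or 22.5-fold, and 5.12 without WT column 1.

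Prss46 was the lowest member and the least precise. KO replicates 1 to 4 held 204, 241, 109 and 134 recovered reads of Prss46, against 33, 3 and 0 in WT columns 1, 3 and 4. As normalised reads the means were 180 ± 75.3 in KO fat and 10.4 ± 15.6 in WT fat (SD, n = 4 and 3). The groups did not overlap, with the lowest KO library 3.49 times the highest WT library. The log2 difference of 5.11 (SE 0.98), or 34.6-fold, was the largest of the 5 but depended most on the settings: it was 3.58 with a pseudocount of 8, 6.41 without WT column 1, 3.97 without WT column 4 and 4.04 by edgeR on the recovered reads.

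**Figure D1:**
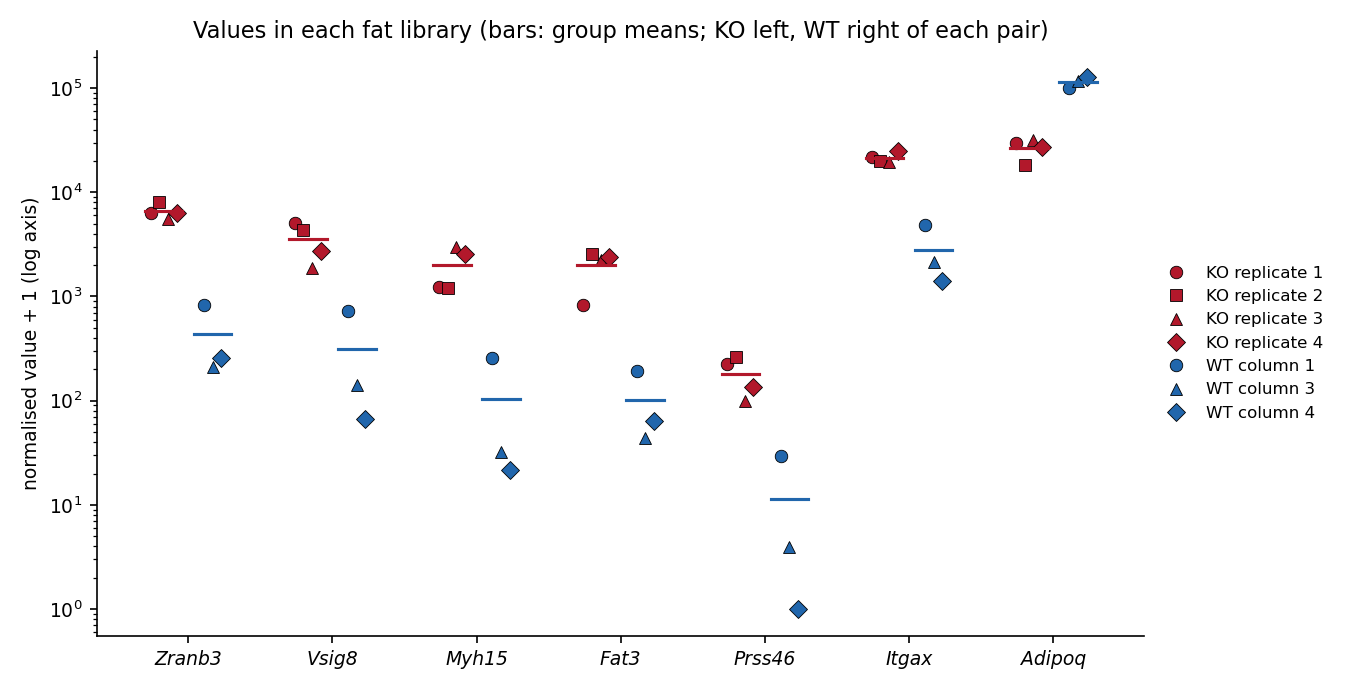
Normalised value + 1 of the 5 members, Itgax and Adipoq in each fat library, on a log axis, with KO libraries in red left of WT libraries in blue and bars at the group means (n = 4 and 3). All 5 members and Itgax lie higher in each KO library than in any WT library, Adipoq lies lower, and WT column 1 is the highest WT library of all 5 members.

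In rank by log2 difference among the 14455 genes tested in fat, Prss46 stood 3, Myh15 4, Fat3 7, Zranb3 10 and Vsig8 12. All 5 exceeded every WT library in every KO library, as did 21.6% of the tested genes. The limma test called 16.8% of tested genes higher and 17.4% lower. The contrast chose the members, so nothing is read from their counts.

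Levels of different genes were compared per kilobase of annotated exon. On that scale Vsig8 was the highest member in KO fat, with 1879 normalised reads per kilobase, followed by Zranb3 with 721, Myh15 with 317, Prss46 with 134 and Fat3 with 93.4. The order of the WT means was the same, at 166 for Vsig8, 47.6 for Zranb3, 16.2 for Myh15, 7.76 for Prss46 and 4.63 for Fat3. In KO fat the libraries of Vsig8, Zranb3 and Myh15 did not overlap on this scale. Prss46 (73.5 to 193 per kilobase) overlapped with Myh15 (191 to 474) and with Fat3 (38.6 to 119), and in WT fat the libraries of every pair of neighbours in this order overlapped. Itgax, with 4473 per kilobase in KO fat and 580 in WT fat, lay above all 5.

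The spread between WT columns was large for every member. The coefficient of variation was 79.5% for Zranb3, 81.7% for Fat3, 117% for Vsig8, 129% for Myh15 and 150% for Prss46 in WT fat. Itgax spread by 64.1% and Adipoq by 11.7% over the same 3 columns. In KO fat the coefficients were smaller, from 16% for Zranb3 to 45.8% for Myh15, beside 11.4% for Itgax and 21.9% for Adipoq. WT column 1 was the highest WT library for all 5 members and for Itgax, and the lowest for Adipoq.

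In the WT group the members followed Itgax in large part. Itgax had 4800, 2137 and 1414 normalised reads in WT columns 1, 3 and 4, and Vsig8, Myh15 and Prss46 followed the same order. Zranb3 and Fat3 put column 4 above column 3. Adipoq ran opposite to Itgax, with 100179, 116993 and 126791. On the log2 scale, WT column 1 lay above its group mean by 0.98 for Itgax, 1.22 for Zranb3, 1.25 for Fat3, 1.94 for Vsig8, 2.19 for Myh15 and 2.59 for Prss46.

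Within the KO group no member had the order of Itgax. Itgax had 21672, 20012, 19395 and 24861 normalised reads in KO replicates 1 to 4, and Adipoq 29625, 18358, 31684 and 27402. Replicate 4 was the highest for Itgax but for none of the 5 members. Zranb3, Fat3 and Prss46 were highest in replicate 2, which was the lowest for Adipoq, Vsig8 in replicate 1 and Myh15 in replicate 3. No correlation over the 7 libraries is given because they fall into 2 separate clusters, and neither group has enough libraries for its own.

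**Figure D2:**
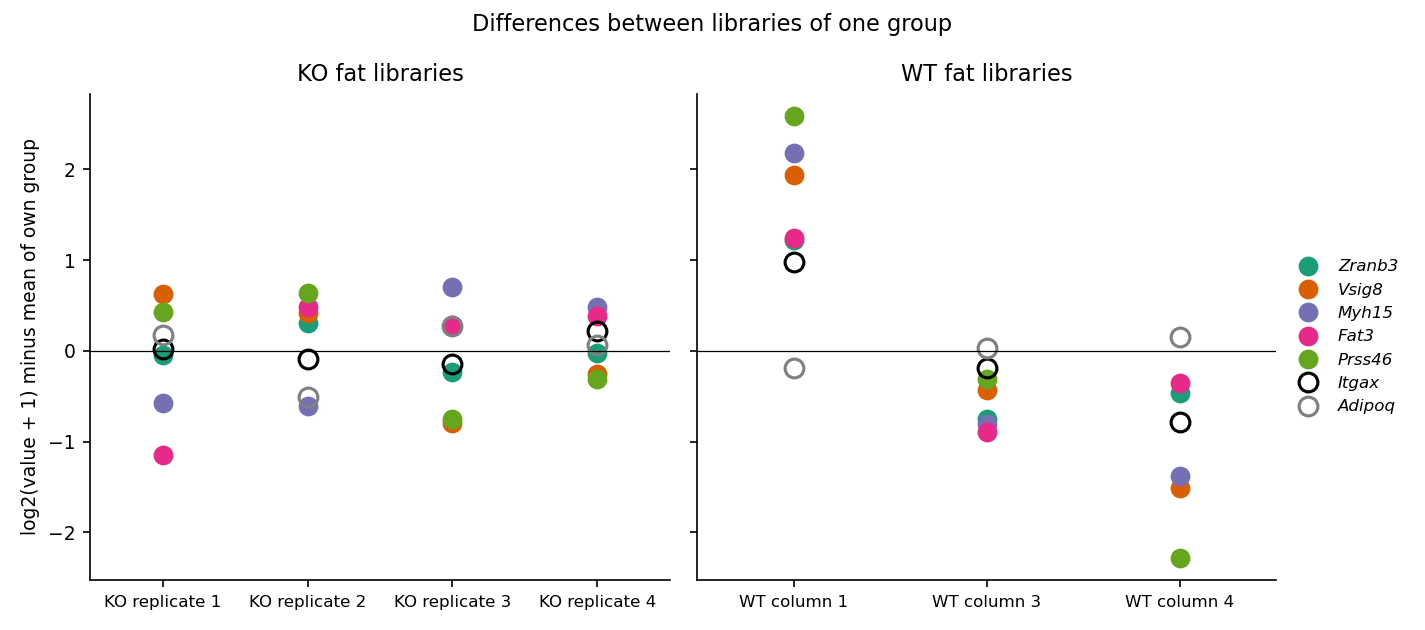
Difference of each fat library from the mean of its own group on the log2(value + 1) scale, for the 5 members, Itgax and Adipoq, with KO libraries in the left panel and WT libraries in the right. In WT column 1 all 5 members lie above Itgax (0.98), and in KO replicate 1 Fat3 lies at -1.15 while Vsig8 lies at 0.63.

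Set against Itgax in the same library, Zranb3 and Myh15 were higher in each KO library than in any WT library. The members were chosen for large rises in these libraries, with log2 differences of 4.11 to 5.11, beside 3.13 for Itgax. A higher ratio to Itgax in KO fat is therefore partly built in and is given as a description only. The macrophage genes set beside them below rose less than any member, by 3.55 (Trem2), 2.66 (Emr1) and 1.41 (Csf1r). Zranb3 had 290, 400, 284 and 256 reads per 1000 Itgax reads in KO replicates 1 to 4, against 172, 98.9 and 182 in WT columns 1, 3 and 4. Myh15 had 57.3, 60.4, 155 and 103 per 1000 Itgax reads in KO fat, against 53.2, 14.7 and 14.6 in WT fat, so that only WT column 1 came near the KO range. The other 3 overlapped between groups on this scale. The share of all genes without overlap on this scale was not computed, so nothing is read from how many members overlapped. Vsig8 spanned 97.7 to 235 in KO fat and 46.7 to 152 in WT fat. Fat3 spanned 38.3 to 128 in KO fat and 20.1 to 44.5 in WT fat, and Prss46 5.10 to 13 in KO fat and 0 to 5.91 in WT fat. Of 3 other macrophage genes on the same scale, Trem2 (584 to 933 in KO fat, 440 to 788 in WT fat) and Emr1 (1239 to 1896 in KO fat, 1830 to 2346 in WT fat) overlapped between groups, and Csf1r was lower in each KO library (1381 to 1756, against 4027 to 6046 in WT fat).

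Cell type markers moved strongly in the same libraries, where 16.8% of all tested genes were called higher and 17.4% lower. Of 15 macrophage markers 13 rose and 0 fell in KO fat, and their summed level was 344890 to 497042 in KO fat and 62282 to 186478 in WT fat. Of 15 lipid-associated macrophage markers 12 rose. That count was 9 without WT column 3 and at most 13 over the other settings, where at most 1 fell. Lpl is on this list and also among the adipocyte markers. Of 15 adipocyte markers 13 fell, with sums of 620297 to 824561 in KO fat and 1526490 to 1707910 in WT fat. All 9 endothelial markers fell, with sums of 21401 to 36462 in KO fat and 51081 to 65254 in WT fat, and 5 of 9 mesothelial markers fell, with sums of 3161 to 5745 in KO fat and 5574 to 10645 in WT fat. The macrophage count was 13 or 14 under all 13 other settings and the adipocyte count 11 to 15. Without WT column 3 the endothelial count was 5. The mesothelial count was 1 without KO replicate 2, KO replicate 4, WT column 3 or WT column 4, 2 without KO replicate 1 and 3 with no filter on low values. The part of this shift in the members' values was not tested.

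Markers of the tissues from which the members are best known gave a different picture. Beside Prss46, 10 of 12 male germ cell markers had at most 1 read in each KO library, Prm1 and Prm2 of sperm chromatin among them. Prm2 had 0, 1.08, 0.91 and 1.01 normalised reads in KO replicates 1 to 4, against 282, 92.0 and 25.8 in WT columns 1, 3 and 4. The list without Sycp3 summed to 9 to 23 reads in KO libraries and to 966, 272 and 87 reads in WT columns 1, 3 and 4. Without Sycp3, the summed germ cell genes had the same order across the WT columns as Prss46, as had Itgax. All 12, Sycp3 included, summed to 755 to 1095 normalised reads in KO fat and 247 to 1122 in WT fat, so the groups overlapped. Of 3 tested, 1 rose, 1 fell and 1 did not pass, beside 16.8% of all tested genes called higher and 17.4% lower. The count that fell ran from 0 to 8 over the other settings. The part of germ cells in the Prss46 values was not tested. Sycp3, of the meiotic chromosome axis, rose to 875 ± 144 in KO fat, against 219 ± 67.1 in WT fat (SD, n = 4 and 3; limma adjusted p = 0.000982).

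Beside Myh15, the 12 skeletal muscle markers summed to 494 to 665 normalised reads in KO fat and 821 to 1512 in WT fat. Acta1, skeletal actin, carried most of that sum, and the other 11 overlapped, at 153 to 296 in KO fat and 216 to 340 in WT fat. Of the 7 tested, Tnni2 rose and Acta1 fell, where 16.8% of all tested genes were called higher and 17.4% lower. Beside Vsig8, the hair keratins Krt71, Krt35 and Krt85 and the hair desmoglein Dsg4 had no read in any fat library. The 11 hair and keratinocyte markers summed to 54.4 to 123 in KO fat and 101 to 141 in WT fat. Beside Fat3, the 10 neuron and Schwann cell markers summed to 368 to 541 in KO fat and 480 to 671 in WT fat. Beside Zranb3, the 12 proliferation markers summed to 15218 to 20549 in KO fat and 3701 to 12481 in WT fat. Of these 6 rose and 0 fell, where 16.8% of all tested genes were called higher and 17.4% lower. That count was 1 without KO replicate 1 or without KO replicate 2, 3 without KO replicate 4 and by edgeR on the recovered reads, and 9 without WT column 1.

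**Figure D3:**
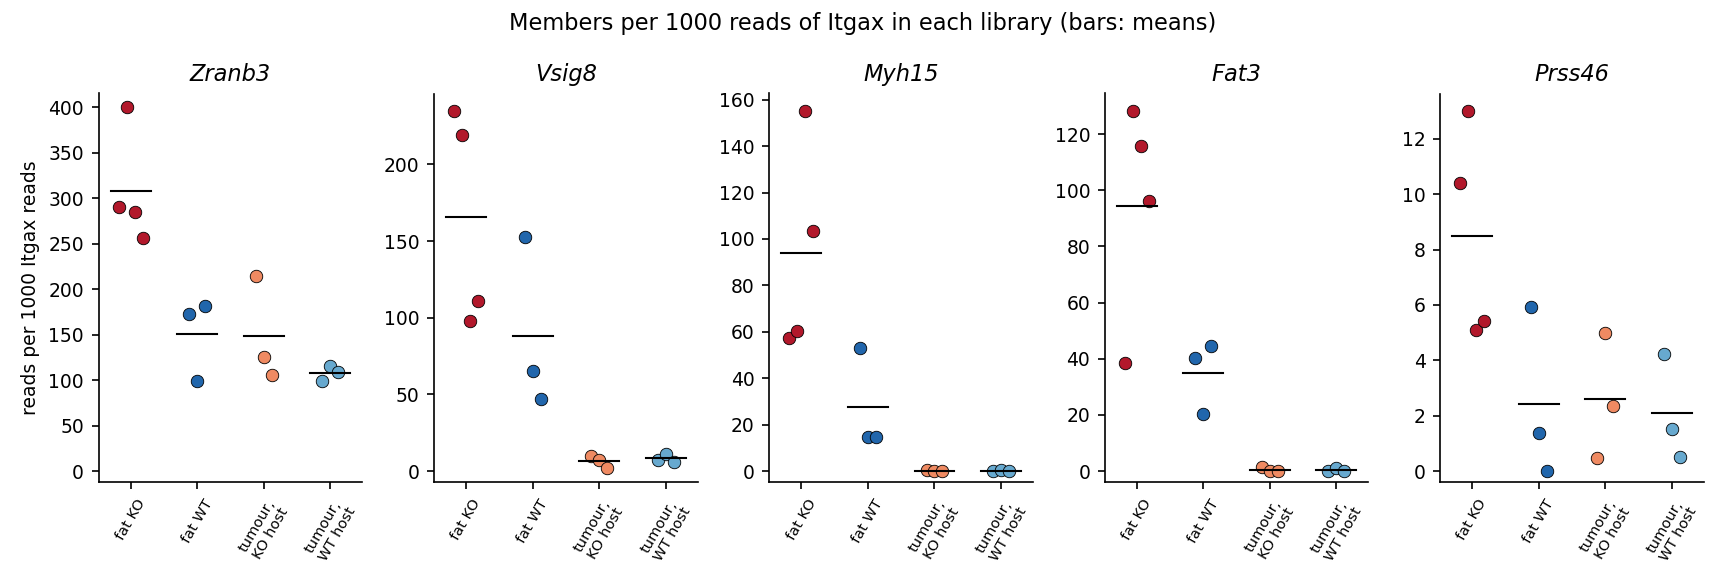
Reads of each member per 1000 Itgax reads in the same library, on linear axes from 0, for fat of KO and WT mice (n = 4 and 3) and tumours of KO and WT hosts (n = 3 each), with bars at the means. Vsig8, Myh15 and Fat3 lie near 0 in all 6 tumours (at most 11.1, 0.505 and 1.38) although the tumours hold Itgax, and Zranb3 lies at 99.3 to 214 there.

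The choice of members did not use the tumours. Itgax was present in each, at 1830, 2287 and 1924 normalised reads in KO hosts, against 1866, 1890 and 1819 in WT hosts. No gene was called in either direction among 13109 tested by edgeR (0%). Before adjustment 6.9% had a p under 0.05, of which 497 were higher and 408 lower, and DESeq2 called 47 higher and 12 lower. Of the members, Zranb3 and Vsig8 could be tested, and neither was called. The tables of the 2 tissues were normalised apart, so levels are not compared across them except per Itgax read. Per 1000 Itgax reads, Zranb3 (99.3 to 214) and Prss46 (0.459 to 4.99) in the tumours overlapped with WT fat, while Vsig8, Myh15 and Fat3 lay below every fat library.

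Zranb3 had 392, 288 and 203 normalised reads in tumours of KO hosts 1 to 3, against 185, 218 and 198 in those of WT hosts 1 to 3. KO hosts 1 and 2 were the highest, and KO host 3 fell among the WT hosts, so the groups overlapped. Means were 294 ± 94.8 in KO hosts and 200.4 ± 16.3 in WT hosts (SD, n = 3 each). The log2 difference of 0.56 (SE 0.24) had an edgeR adjusted p of 0.709, and the exact permutation test, two-sided over 20 relabellings, gave p = 0.2 where the smallest possible is 0.1. Without KO host 1 the log2 difference was 0.29. That library also had the highest Emr1 (6253 normalised reads) and Trem2 (1816) of the 6, and the part of these macrophage genes in the result was not tested.

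Vsig8 was barely detected in tumours, with counts of 22, 13 and 3 in KO hosts, against 14, 22 and 12 in WT hosts. The normalised means were 12.8 ± 8.20 in KO hosts and 15.3 ± 5.07 in WT hosts (SD, n = 3 each; log2 difference -0.24, SE 0.64, edgeR adjusted p = 0.952; exact permutation p = 0.8). The sign turned to 0.20 without KO host 3 and to 0.05 without WT host 2.

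Myh15, Fat3 and Prss46 had too few counts in tumours to pass the filter. The summed count of Myh15 was 1 in KO hosts and 1 in WT hosts, each with an exact 95% Poisson interval of 0.0253 to 5.57. Fat3 had 3 counts in KO hosts (0.619 to 8.77) and 2 in WT hosts (0.242 to 7.22). Prss46 had 14 in KO hosts (7.65 to 23.5) and 12 in WT hosts (6.20 to 21). These intervals cover counting error only. A difference between hosts was not detectable at this depth, and the exact permutation p was 1 for Myh15, 1 for Fat3 and 0.8 for Prss46. Each of the 6 tumours thus held at most 1 count of Myh15 and 3 of Fat3 beside 1708 to 2179 counts of Itgax.

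Genes that work with ZRANB3 at the replication fork and PCNA were called at a share that depended on single libraries. Of 25 tested in fat, 6 rose, 0 fell and 19 did not pass, beside 16.8% of all tested genes called higher, with a median log2 difference of 0.19 against -0.000497 over all tested genes. Pcna itself averaged 2277 ± 427 in KO fat and 913 ± 266 in WT fat (SD, n = 4 and 3; log2 difference 1.34, limma adjusted p = 0.00297). Rfwd3, a ubiquitin ligase at stalled forks, was 0.58 higher on the log2 scale (limma adjusted p = 0.0114). Rad18, the ligase that ubiquitinates PCNA, was 0.67 higher (limma adjusted p = 0.0213). Over the other settings its adjusted p reached 0.0845, and the call was lost without KO replicate 2, KO replicate 4 or WT column 3. The count of fork genes that rose was 2 without KO replicate 2, 3 without KO replicate 4 or WT column 3, and at most 7.

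Other V-set proteins were called at about the shares over all tested genes, which were 16.8% higher and 17.4% lower. Of 11 tested 2 rose, 2 fell and 7 did not pass, and the median log2 difference was -0.27. Vsig4, a complement receptor of resident macrophages, averaged 309 ± 116 in KO fat and 73.9 ± 8.94 in WT fat (SD, n = 4 and 3; limma adjusted p = 0.00210). The row 4632428N05Rik, an older symbol of Vsir that encodes VISTA, averaged 18763 ± 1611 in KO fat and 11148 ± 910 in WT fat (SD, n = 4 and 3; limma adjusted p = 0.00416). The junction proteins F11r and Esam, which endothelial cells also make, fell by 1.15 and 0.95 on the log2 scale (limma adjusted p = 0.00240 and 0.00583). The fold change of VISTA was 1.68, beside 17.2 for Vsig8.

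No tested myosin heavy chain other than Myh15 was called higher, and 0 or 1 was under the other settings. A call came with no filter on low values and with DESeq2 on recovered reads. Of 13 with a row, 6 were tested: 0 rose, 3 fell and 3 missed the threshold, with a median log2 difference of -1.23. Over all tested genes, the shares were 16.8% higher and 17.4% lower. Myh14 averaged 234 ± 56.3 in KO fat and 749 ± 58.5 in WT fat, and Myh10 1461 ± 384 in KO fat and 3190 ± 306 in WT fat (SD, n = 4 and 3; limma adjusted p = 0.00121 and 0.00517); both are nonmuscle myosins. Myh11 of smooth muscle averaged 1919 ± 866 in KO fat and 5351 ± 2367 in WT fat (SD, n = 4 and 3; limma adjusted p = 0.0212). Its adjusted p reached 0.0637 over the other settings, where the call was lost without KO replicate 1, WT column 3 or WT column 4. Myh6 and Myh8, of cardiac and perinatal muscle, had no read in any fat library. Myh3 was too low to be tested, with 3.31, 3.24, 13.6 and 8.06 normalised reads in KO replicates 1 to 4 and 0 in each WT column.

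Fat, Dachsous and Celsr cadherins and their partners were set beside the 16.8% of all tested genes called higher and 17.4% lower. Of 12 tested, 1 rose, 4 fell and 7 missed the threshold (median log2 difference -0.55). The gene that rose was Evl, an Ena/VASP actin regulator, with 9527 ± 967 in KO fat and 1732 ± 1144 in WT fat (SD, n = 4 and 3; limma adjusted p = 0.00183). Celsr2 and Vangl1, of planar cell polarity, fell by 2.05 and 0.68 on the log2 scale (limma adjusted p = 0.00790 and 0.00857). Fat4 and its ligand Dchs1 fell by 1.17 and 0.75 (limma adjusted p = 0.0443 and 0.0489), and both calls were lost in 6 or 7 of 13 other settings, with adjusted p up to 0.129 and 0.172. Those settings included fits without KO replicate 2, WT column 1 or WT column 3 for both genes, KO replicate 4 or WT column 4 for Fat4, and KO replicate 1 or 3 for Dchs1. Fat1 averaged 3521 ± 1434 in KO fat and 5131 ± 949 in WT fat (SD, n = 4 and 3) and did not pass. KO replicate 1, the low library of Fat3, was also the lowest for Fat1, with 1378 normalised reads against 4139 to 4408 in the other KO libraries, and for Fat4, with 172 against 422 to 597. This was not limited to these cadherins: the same library was the lowest KO library for Myh9, with 22185 against 36806 to 37585, for the fork gene Bod1l, with 1714 against 3065 to 3801, and for R3hdm1 and Bbx. Without KO replicate 1 the log2 difference of Fat3 was 4.88.

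Of 36 other numbered Prss proteases, 23 had fewer than 10 reads in each fat library and 7 were tested. Of those 7, 3 rose, 2 fell and 2 missed the threshold (median log2 difference 0.20). The shares over all tested genes were 16.8% higher and 17.4% lower. Prss12 and Prss30 were 1.19 and 1.85 higher on the log2 scale (limma adjusted p = 0.00456 and 0.00586). Prss34, a mast cell protease, was 2.19 higher (limma adjusted p = 0.0168), beside 6 of 8 mast cell markers that rose. Prss36 and Prss27 fell by 0.94 and 1.51 (limma adjusted p = 0.00506 and 0.0112). Without WT column 3 the calls of Prss34 and Prss27 were lost, at 0.0631 and 0.0503. In tumours no gene of these 5 related lists was called.

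**Figure D4:**
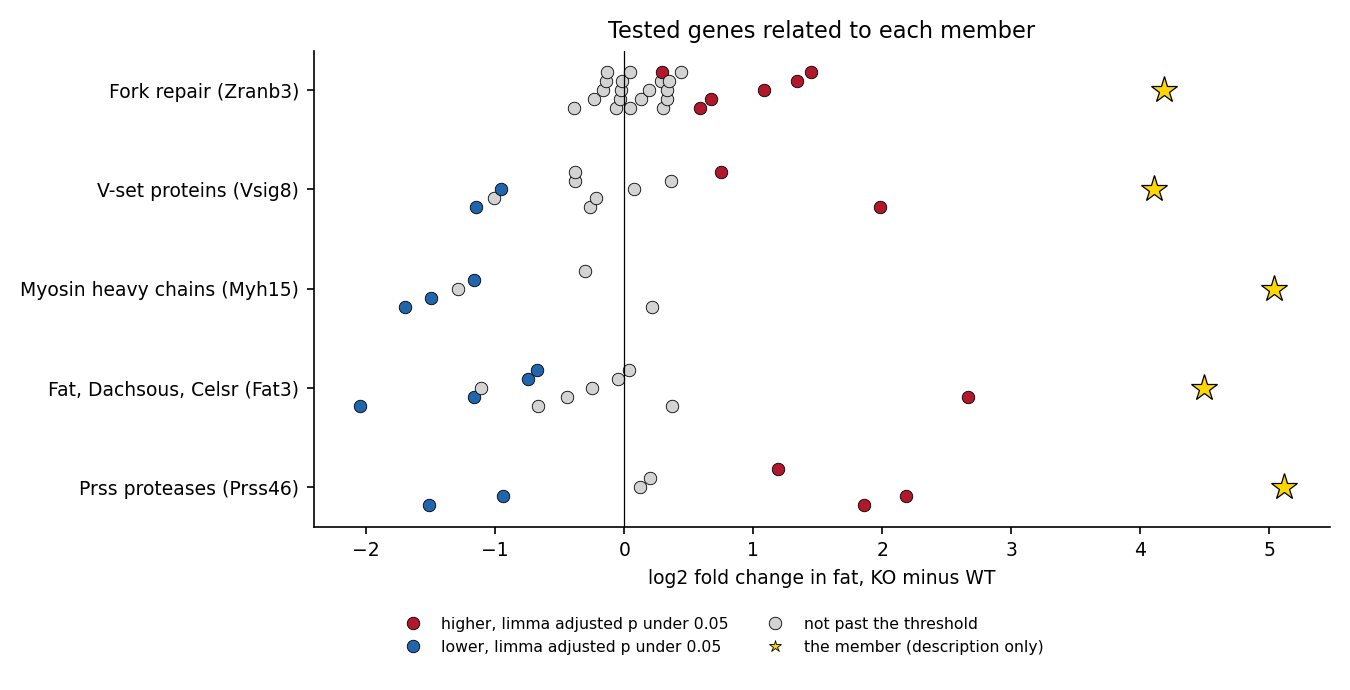
Log2 difference in fat, KO minus WT, of the tested genes related to each member, coloured by limma adjusted p under 0.05 (red higher, blue lower, grey not passed), with the member as a star. The related genes lie between Celsr2 at -2.05 and Evl at 2.66, and the stars lie to their right because the members were chosen for large rises in these libraries.

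Genomic neighbours were examined as the 3 nearest genes on each side whose name in GENCODE M21 (GRCm38, mm10) matched a table row. Genes with a row under another symbol were passed over, since 20284 of 22609 symbols matched. Of 20 tested neighbours, 6 rose and 1 fell, where 16.8% of all tested genes were called higher and 17.4% lower. Of the tested neighbours of Vsig8 4 of 5 rose, and of those of the other members 2 of 15. Neighbours need not be adjacent: gaps ran from 0 bases (4933439K11Rik and Vsig8) to 1903133 bases (Ubtfl1 and Fat3). The count of those that rose was 3 without KO replicate 2.

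Zranb3 lies on chr1:127954184-128103047, minus strand, with 23 exon blocks. R3hdm1 starts 254 bases away on the other strand and averaged 2941 ± 551 in KO fat and 1956 ± 439 in WT fat (SD, n = 4 and 3; log2 difference 0.59, limma adjusted p = 0.0485). That call was kept in 7 of 13 other settings and lost without KO replicate 2, 3 or 4 and without WT column 3 or 4 (adjusted p up to 0.166). Rab3gap1, Ccnt2 and Ubxn4 did not pass, at log2 differences of -0.29, 0.17 and 0.13. An antisense gene without a row, Gm28800, shares 706 exon bases with Zranb3, and whether the counting used strand is not given in the sources used here. Of the 50-base stretches of Zranb3 transcripts, 6.99% occur in transcripts of other genes, while for the other 4 members none does.

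Vsig8 lies on chr1:172555938-172563717, plus strand, with 8 exon blocks, in a stretch where most tested neighbours also rose. Igsf9, of the immunoglobulin superfamily, averaged 431 ± 54.1 in KO fat and 166 ± 9.46 in WT fat (SD, n = 4 and 3; limma adjusted p = 0.00101). Tagln2, an actin-binding protein, was 1.22 higher on the log2 scale (limma adjusted p = 0.0129). Slamf8, a myeloid receptor, was 1.70 higher (limma adjusted p = 0.0234; 0.0571 at most in the other settings, lost without KO replicate 1 or 2). 4933439K11Rik, which overlaps Vsig8 on the opposite strand with 0 shared exon bases, was 2.19 higher (limma adjusted p = 0.0221; up to 0.0779, lost without KO replicate 2 or 4 or WT column 3 or 4). Dusp23 had a log2 difference of -0.05 and did not pass.

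Myh15 lies on chr16:49057486-49199104, plus strand, with 41 exon blocks. The 1 called neighbour was Retnla, 213025 bases away, a gene of alternatively activated macrophages and of adipose tissue. Retnla averaged 4005 ± 1947 in KO fat and 21516 ± 6994 in WT fat (SD, n = 4 and 3). Its log2 difference was -2.48 (limma adjusted p = 0.00201). Dzip3, Retnlg, Ift57, Cd47 and Bbx did not pass, with log2 differences of -1.23 (Retnlg) to 0.39 (Cd47). Fat3 lies on chr9:15910189-16501285, minus strand, with 29 exon blocks. Naalad2, a peptidase gene 1820666 bases away with Chordc1 between, was 0.65 higher on the log2 scale (limma adjusted p = 0.0123). Slc36a4 and Chordc1, at 0.27 and -0.11, did not pass, and Mtnr1b, 4930540M03Rik and Ubtfl1 had no read. Prss46 lies on chr9:110844506-110856522, plus strand, with 5 exon blocks, between other proteases of its cluster. Prss43 had no read in fat, and Prss44, Prss45 and Prss50 had at most 1.72 normalised reads in any library, beside 98.97 or more in each KO library for Prss46. Tmie and Als2cl, at -0.15 and -0.47, did not pass. No neighbour was called in the tumours.

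**Figure D5:**
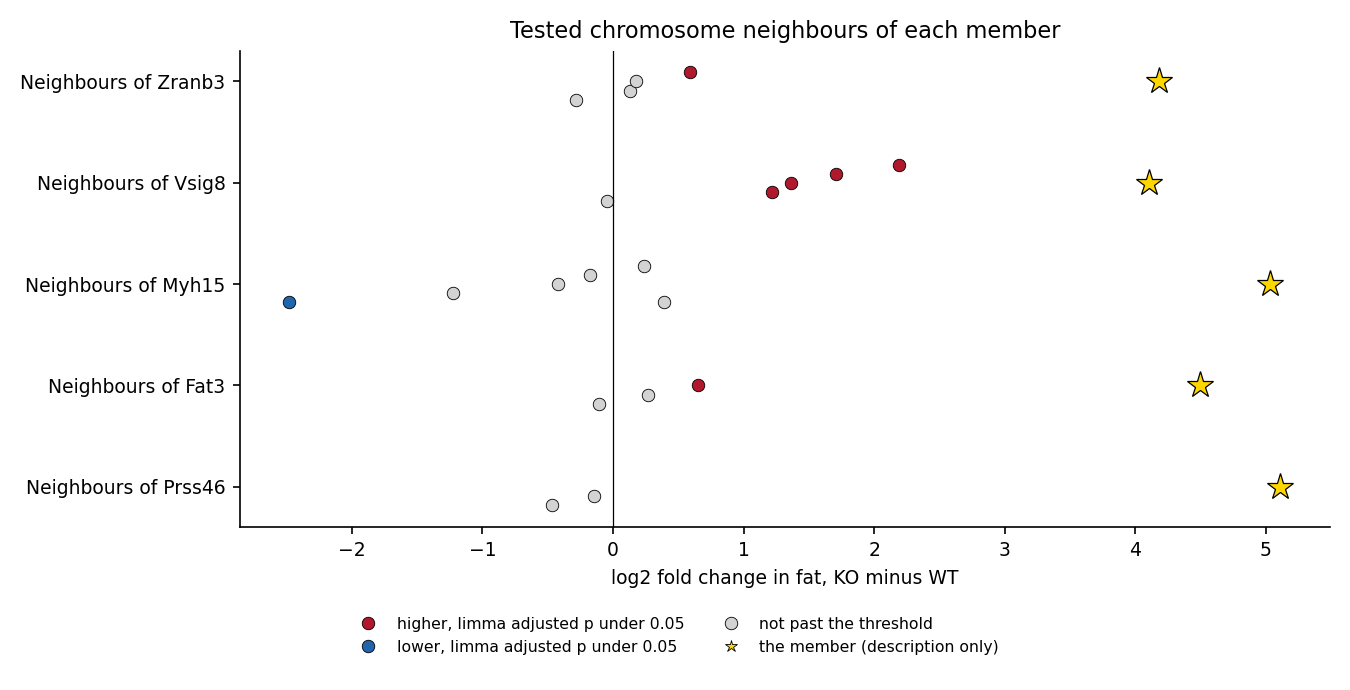
Log2 difference in fat, KO minus WT, of the tested chromosome neighbours of each member, coloured as higher (red), lower (blue) or not passed (grey) at a limma adjusted p under 0.05, with the member as a star. The 4 red neighbours of Vsig8 lie at 1.22 to 2.19 and Retnla, 213025 bases from Myh15, at -2.48.

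The genes whose profile over the 7 fat libraries was most like each member were then listed among 12715 genes with a mean of 50 or more. Likeness was the root mean square distance of log2 values, each less its mean over the libraries, and is a description that the shared difference between KO and WT dominates. For Zranb3 the nearest were the serotonin receptor gene Htr2b (0.26), the kinase gene Cdk15 (0.27) and the prostaglandin D synthase gene Hpgds (0.30), where the median gene was at 2.16. Fat3 had the same 3 nearest genes, at 0.56, 0.59 and 0.64. The B cell and macrophage receptor gene Cd72 was nearest to Vsig8 (0.32), Myh15 (0.78) and Prss46 (0.71). Vsig8 was followed by Gm14461 (0.33) and Gpnmb (0.35), Myh15 by Atp6v0d2 (0.84) and Tmem171 (0.86), and Prss46 by Serpinb1c (0.75) and Hmga2 (0.77). Gpnmb and Atp6v0d2 are lysosomal genes of lipid-laden macrophages.

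The members were also compared with each other on this measure. Zranb3 and Fat3 were the nearest pair, at 0.52, followed by Zranb3 and Vsig8 at 0.60 and Vsig8 and Prss46 at 0.64. When each group's own mean was taken off, Vsig8 and Prss46 became the nearest pair of members at 0.40, and Zranb3 lay 0.32 from Itgax. Taking off the group means left 0 of the nearest genes named above among the 3 nearest of any member.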

How the data were processed

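Polyadenylated RNA was sequenced from 13 mouse libraries, made with a stranded Illumina TruSeq kit per the labels' protocols. The submitters' processing notes name CASAVA, TopHat, DESeq2 and mm10 with no versions or roles; the counting tool, annotation and strand setting are not given in the sources used here. The authors deposited raw read counts per gene for the tumours. For fat they deposited a signal per gene, called normalised reads here, which the values show to be counts divided by 1 size factor per library: of 117220 values above 0, 100% were whole multiples of the library's smallest value within 0.001. Reads recovered in this way served for alternatives. The 5 closing summary lines of the tumour table, 66.7% to 72.2% of entries, were left out.

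The fat values, as log2(value + 1), were fitted in limma 3.58.1 (R 4.3.3, mean-variance trend), for genes at 10 or more in at least 3 libraries. A fold change is thus from a difference of mean log2(value + 1), where the added 1 pulls low genes towards no change. It is not the ratio of the group means, which was lower than the fold change for each member. That ratio was 15.2 for Zranb3, 11.3 for Vsig8, 19.6 for Myh15, 20.2 for Fat3 and 17.2 for Prss46. Tumours were tested with edgeR 4.0.16 (TMM, filterByExpr, quasi-likelihood). Normalised tumour reads are counts per TMM library size times the mean such size. Tests were two-sided, KO minus WT, with p-values adjusted by Benjamini and Hochberg over all tested genes at 0.05. DESeq2 1.42.0, other scalings, filters, pseudocounts and left-out libraries were alternatives. No 2 libraries of a group agreed within sampling noise (chi-square per degree of freedom 23.1 to 224). Of 22609 symbols, 20284 matched GENCODE M21. The fits were tested on simulated data.

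Named genes were the 5 members, Itgax, Adipoq, up to 4 called genes of smallest p per related list and direction, all neighbours, the 3 nearest profiles per member, and defining markers; 1 gene that this rule names is not reported here. The members, lists and tests were chosen with earlier results of these data known.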

Additional observations from a re-analysis of the deposited data

Results flagged for a closer look

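In a set of 82 genes in KO fat, 2 had 1 library far from the rest, where chance gives such a gap in about 1 of 20 groups. Genes whose highest KO value was under 10 normalised reads could not be flagged, so fewer than 82 were open to this check. Vangl1, of the list related to Fat3, had 488 normalised reads in KO replicate 3, a gap to the next library of 0.967 of the group's range. Bbx, a neighbour of Myh15, had 954 in KO replicate 1, a gap of 0.833 of the range, and lay below the other three. No member of the 5 met that criterion.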

How the results depend on the processing

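Counts over all fat genes kept within 1.5 times of 2430 higher and 2517 lower except without WT column 3, and leaving out 1 library in turn gave 1575 to 2691 higher and 1490 to 2567 lower. Related genes lower in fat numbered 11, and 7 without WT column 3. Neighbours higher numbered 6, and 3 without KO replicate 2, and neighbours lower numbered 1, and 2 with DESeq2 on recovered reads or without WT column 1. Tumour calls numbered 0 in each direction, but 47 higher and 12 lower with DESeq2, 21 and 1 with no filter beyond 1 count, and up to 10 higher and 11 lower with 1 library left out (9 higher without KO host 3). No related gene or neighbour was called in tumours under any of the 10 alternatives. The cause of these shifts was not tested.

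The tumour log2 difference of Vsig8 ran from -0.65 to 0.20 (0.05 without WT host 2; adjusted p 0.818 to 1), and that of Zranb3 from 0.29 to 0.77 (adjusted p 0.436 to 1). In fat the members stayed higher in KO under all 13 alternatives. The replicate block gave 0 tumour calls, with log2 differences of 0.51 for Zranb3 and -0.39 for Vsig8. Same-numbered tumours did not deviate together (correlations -0.218, 0.0118 and -0.22). No pairing of hosts by number was thus detected, and these correlations cannot exclude one. No paired analysis was possible in fat because the WT columns carry other numbers than the labels. At tumour depth, Myh15 and Fat3 lie at or under 3 counts per library.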
